A study of Mus musculus with 194 samples.

Results

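Activated CD8+ T-cells that were high in a score of 5 mitotic genes were compared with those that were low in it. The score is the mean ln(TPM+1) of Aurka, Plk1, Cdc20, Ccnb1 and Cenpf in a cell, where TPM, the share of a transcript in its library, is the unit of the table. Of 97 CD8+ T-cells retained, the 32 of highest score (the top tercile) were called high and the 32 of lowest score (the bottom tercile) low, which makes 64 of the 194 single-cell libraries of the series. The other 33 cells form a middle tercile. The cells were chosen by measured expression, so the levels of the 5 score genes describe the selection and carry no test.

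The rest of the series is made up of further CD8+ T-cell libraries and 88 libraries of L1210, a mouse lymphocytic leukemia line. The CD8+ T-cells came from spleens of C57BL/6J mice of both sexes and several ages, for which the labels name no genetic modification, and they were purified with a CD8a isolation kit. All of them, high and low alike, had been stimulated with antibodies against CD3 and CD28 for 30 h and then grown with interleukin 2 (IL2) in a microfluidic array of traps, where imaging recorded each division and the sisters and cousins of each cell. Each cell was then released and sequenced on its own by Smart-Seq2. The labels name no mouse, culture or device run for a cell, so the descendants of 1 founder (a lineage) were treated as a replicate, and differences between mice are not part of the error. Left out were 4 libraries labelled as doublets and 5 with fewer than 1000 detected genes, meaning genes above 0 TPM. The TPM table keeps no read depth, and the number of detected genes is the only measure of library quality taken from it.

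A cell that prepares to divide builds up transcripts of the mitotic machinery in G2, and most of them are removed around the exit from mitosis. Aurora kinase A (Aurka) and Polo-like kinase 1 (Plk1) drive centrosome and spindle assembly, cyclin B1 (Ccnb1) activates Cdk1 for entry into mitosis, Cdc20 activates the anaphase-promoting complex, and Cenpf binds kinetochores and microtubules. Transcription of such genes is known to be driven through a CCAAT box, bound by NF-Y, and a cell cycle genes homology region (CHR), bound by MuvB complexes with B-Myb and FoxM1 in dividing cells and with repressors in quiescent cells.

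These sequences are shown because the score rests on the first 5 of these genes and the other 4 are the genes of lowest p among those higher in high cells that matched a promoter entry. Each runs 5′ to 3′ from 110 bases before to 30 bases after the start of transcription in RefSeq (GRCm38.p6, the build the authors call mm10), and capitals mark the CHR letters TTTGAA and the CCAAT letters, either strand.
Aurka (chr2:172370541-172370680, minus strand): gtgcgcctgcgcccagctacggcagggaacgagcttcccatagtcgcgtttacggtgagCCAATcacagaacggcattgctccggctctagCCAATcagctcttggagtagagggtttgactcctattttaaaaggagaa
Plk1 (chr7:122159325-122159464, plus strand): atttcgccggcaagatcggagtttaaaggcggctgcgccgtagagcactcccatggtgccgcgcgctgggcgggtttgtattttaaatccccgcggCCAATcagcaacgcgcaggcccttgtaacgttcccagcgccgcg
Cdc20 (chr4:118437314-118437453, minus strand): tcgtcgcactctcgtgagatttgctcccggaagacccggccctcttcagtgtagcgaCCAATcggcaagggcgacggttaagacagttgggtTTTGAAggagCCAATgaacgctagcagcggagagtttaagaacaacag
Ccnb1 (chr13:100786457-100786596, minus strand): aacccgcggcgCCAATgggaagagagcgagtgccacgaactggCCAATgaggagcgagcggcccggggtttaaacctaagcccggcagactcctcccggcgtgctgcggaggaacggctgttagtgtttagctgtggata
Cenpf (chr1:189688057-189688196, minus strand): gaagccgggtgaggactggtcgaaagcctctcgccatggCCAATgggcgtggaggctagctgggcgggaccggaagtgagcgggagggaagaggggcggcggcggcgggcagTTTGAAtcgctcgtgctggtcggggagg
Kpna2 (chr11:106999496-106999635, minus strand): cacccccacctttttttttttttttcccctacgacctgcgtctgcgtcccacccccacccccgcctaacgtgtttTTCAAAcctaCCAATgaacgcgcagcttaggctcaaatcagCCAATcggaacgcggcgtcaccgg
Nusap1 (chr2:119618188-119618327, plus strand): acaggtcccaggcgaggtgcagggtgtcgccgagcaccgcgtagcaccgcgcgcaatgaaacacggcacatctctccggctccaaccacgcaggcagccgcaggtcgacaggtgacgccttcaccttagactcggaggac
Ube2c (chr2:164769819-164769958, plus strand): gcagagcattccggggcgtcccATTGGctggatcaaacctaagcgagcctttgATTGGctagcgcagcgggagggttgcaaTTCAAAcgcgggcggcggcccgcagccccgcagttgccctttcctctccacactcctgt
Aspm (chr1:139454663-139454802, plus strand): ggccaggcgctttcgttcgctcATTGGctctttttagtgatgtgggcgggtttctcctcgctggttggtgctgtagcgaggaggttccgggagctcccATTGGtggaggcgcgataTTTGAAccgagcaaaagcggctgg
In the whole windows, from 250 bases before to 50 after the start, 4 of the 5 score genes held TTTGAA and all 5 held CCAAT. In Aurka and Plk1 the TTTGAA begins 33 and 31 bases after the start, past the stretch printed, and Ccnb1 and Nusap1 hold none in the window. Of 27025 genes with a window, 18.1% held TTTGAA, 37.9% CCAAT and 7.12% both. Among the 8070 genes tested for expression that had a window the shares were 12.5%, 40.6% and 5.64%. Both stood in 24.1% of the 291 genes higher in high cells that had a window (of 347). Among the 63 of 77 genes that were also higher after adjustment for the number of detected genes, 49.2% held both. TTTGAA lay within 50 bases of the start in 5.11% of all windows, in 3.26% of the 8070, in 20.3% of the 291 and in 44.4% of the 63. The shares describe letters in a window and not binding.

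The score of the high cells ran from 4.73 to 5.61 with a median of 5.03, that of the middle cells from 3.77 to 4.73, and that of the low cells from 0.571 to 3.66 with a median of 2.94. The low tercile was thus far more spread than the high tercile. The 3 lowest high cells had scores of 4.73, 4.76 and 4.78, next to 4.73, 4.69 and 4.69 in the 3 highest middle cells. The 3 highest low cells stood at 3.66, 3.65 and 3.65, next to 3.77, 3.83 and 3.88. The upper limit of 4.73 fell in a dense part of the distribution, with 11 cells within 0.1 of it, against 5 cells near the lower limit of 3.71.

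Aurka ranged from 24.9 to 339 TPM in high cells with a median of 167 TPM, and from 0 to 87.2 TPM with a median of 4.82 TPM in low cells. Plk1 had medians of 284 TPM (96.5 to 1061) in high and 38.6 TPM (0 to 1233) in low cells, where a single library of 2985 detected genes gave the maximum. Cdc20 had medians of 423 TPM (123 to 1124) and 63.9 TPM (0 to 661). These 3 genes overlapped between the groups to different degrees, and Aurka came closest to separating them. Ccnb1 had medians of 414 TPM (191 to 854) in high and 72.6 TPM (0 to 375) in low cells, and Cenpf of 13.3 TPM (4.14 to 59.5) and 1.26 TPM (0 to 22.3). Each of the 5 was above 0 TPM in all 32 high cells. In the low cells, Aurka was above 0 in 20, Cenpf in 25, Cdc20 in 27, Plk1 in 29 and Ccnb1 in 30 of 32.

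Both groups expressed the genes of T-cell identity. Cd3e was above 0 TPM in every cell of both, with medians of 618 TPM in high and 598 TPM in low cells, and Cd8a had medians of 386 and 361 TPM, at 0 in 1 low cell. The differences of Cd3e (-0.07 in ln(TPM+1), SE 0.21), Cd8a (0.33, SE 0.23) and Cd8b1 (0.04, SE 0.31) did not pass the test. Of 18 markers of B, myeloid, natural killer, CD4+ and red cells, Ms4a1, Vpreb1, Igll1, Lyz2, Cd14, Emr1, Ncr1 and Hbb-b1 were at 0 in every high and low cell, and 2 (Cd79a and Cd79b) were measured widely enough to be tested and did not pass. The summed level of the 18 ran from 0 to 124 TPM in high cells (median 5.10) and from 0 to 283 TPM in low cells (median 30.9), and most of it was Cd79b, with 18 low and 15 high cells above 0. Its part in the differences below was not tested.

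High cells had spent longer since their last division. The recorded time averaged 6.00 ± 1.87 h in high cells (SD, n = 31 cells with a time), 3.80 ± 1.80 h in middle cells (n = 33) and 3.64 ± 1.91 h in low cells (n = 30). The difference of 2.36 h between high and low cells was larger than expected from exchanging whole lineages (2-sided permutation test with 100000 resamples, p = 0.00098). The time was read from images and played no part in the score, so this comparison is independent of the selection. With each lineage left out in turn the difference stayed between 2.12 and 2.54 h.

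**Figure D1:**
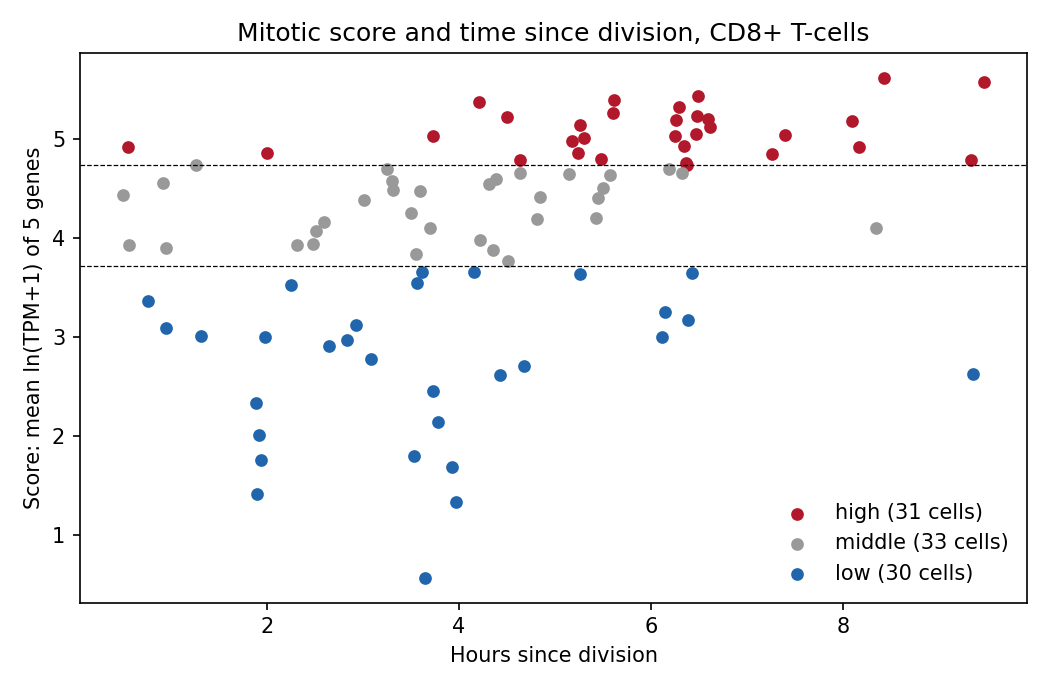
Score of each of the 94 CD8+ T-cells with a recorded time (y axis, mean ln(TPM+1) of 5 genes) against hours since division (x axis), coloured by tercile, with dashed lines at the limits of 3.71 and 4.73. High cells gather after 4 h, while low cells are found mostly before 4 h and 5 of them after 6 h.

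The share of high cells climbed with time, and middle and low cells filled the first 4 h. Of 14 cells under 2 h, 1 was high and 8 were low, and of 27 cells between 2 and 4 h, 2 were high and 13 low. Between 4 and 6 h, 10 of 27 cells were high and 4 low, and of 26 cells beyond 6 h, 18 (69.2%) were high and 5 (19.2%) low. Time alone therefore did not fix the class. The only high cell under 2 h, CD8_49 at 0.553 h, held 558 TPM of Cdc20 and 36.7 TPM of Cenpf but only 24.9 TPM of Aurka, the lowest Aurka among high cells. Its sister CD8_50, at 0.567 h, had a score of 3.92 and lay in the middle tercile. The 4 libraries labelled as doublets, recorded 0.2 to 0.55 h after division and not part of either group, had scores of 3.80, 4.35, 4.45 and 4.65.

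The 5 low cells beyond 6 h were not alike. CD8_9 and CD8_10, sisters at 6.12 and 6.15 h, held 323 and 300 TPM of Ube2c, above the low-cell median of 101.9 TPM. CD8_40 and CD8_76 at 6.38 and 6.43 h held 84.95 and 89.3 TPM of Ung, a base excision repair enzyme transcribed around the G1/S transition. Ung was at 0 TPM in CD8_9 and CD8_10. Ube2c stood at 29.9 TPM in CD8_40 and at 134 TPM in CD8_76, the latter also above the low-cell median. CD8_7 at 9.36 h came from a library with 2985 detected genes, with 1233 TPM of Plk1 and 0 TPM of Cdc20 and Cenpf. Detected genes in the other 4 numbered 4355 to 9530.

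The 5 score genes did not follow time in the same way over the 94 cells. The median of Aurka was 1.39 TPM under 2 h, 63.2 TPM at 2 to 4 h, 113.9 TPM at 4 to 6 h and 155 TPM beyond 6 h, a steady climb. Cdc20 had a median of 319 TPM under 2 h, 78.5 TPM at 2 to 4 h, 275 TPM at 4 to 6 h and 357 TPM beyond 6 h, so that its level soon after division was near that of late cells. Ccnb1 had medians of 149.5, 118, 199 and 332 TPM in the same intervals, with a shallow minimum at 2 to 4 h.

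**Figure D2:**
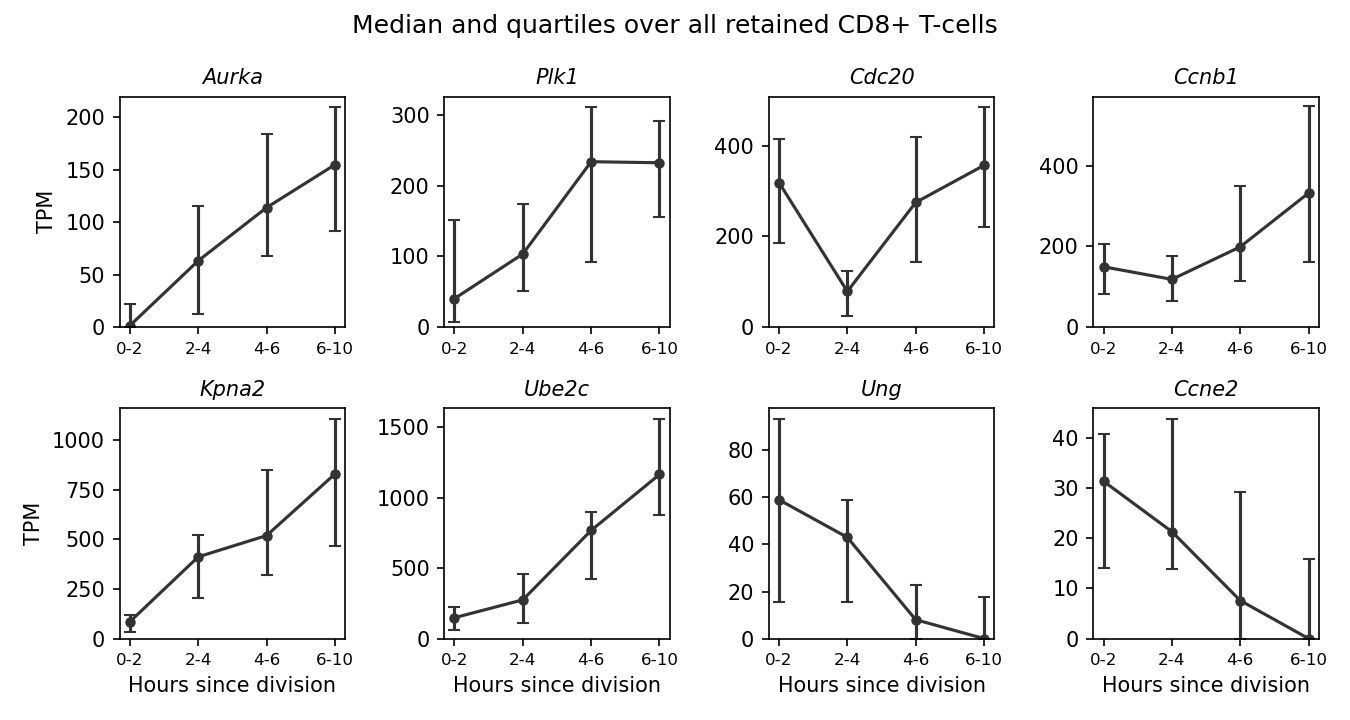
Median TPM (points) and quartiles (bars) of 8 genes over all retained CD8+ T-cells with a time, in 4 intervals of hours since division (14, 27, 27 and 26 cells). Aurka, Kpna2 and Ube2c climb, Cdc20 starts near 319 TPM and dips to 78.5 TPM at 2 to 4 h, and Ung and Ccne2 decline to a median of 0 TPM beyond 6 h.

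Lineage membership of the groups was counted and not tested against random membership. The 97 cells fell into 34 lineages, 17 with a high cell and 19 with a low cell. Of 27 lineages with 2 or more cells, 9 held high and no low cells, 11 low and no high cells, 5 held both and 2 neither. The SD of lineage mean scores was 0.807, and the median SD within a lineage 0.639.

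Sisters were closer in score than unrelated cells. Over 27 lineages with 43 sister pairs, sisters differed by 0.754 ± 0.585 (SD over lineages) and the same cells differed from cells of other lineages by 1.205 ± 0.292. The difference of -0.45 was below 0 in 21 of 27 lineages (sign-flip permutation test over lineages, 2-sided, p = 0.00037). Sisters share their time since division, with a median gap of 0.0439 h. They also share a mouse, a culture and a device run, which the labels do not name. Kinship cannot be told apart from these here. After the score was taken as the residual on hours, a choice made after seeing the data, the difference was -0.34 (p = 0.00117), and as the residual on detected genes it was -0.45 (p = 9e-05). For cousins, over 20 lineages and 72 pairs, it was -0.19, lower in 15 of 20 lineages, and did not pass the test (p = 0.0974).

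Of the 43 sister pairs, 6 were both high, 8 both low and 4 (9.30%) high with low, where 22.4% of 4541 unrelated pairs were high with low. In the pair CD8_6 and CD8_7 the scores were 4.79 and 2.63 at 9.33 and 9.36 h, with 5778 and 2985 detected genes. CD8_39 and CD8_40 had 4.76 and 3.17 at 6.37 and 6.38 h, with 7979 and 6573 detected genes. CD8_24 and CD8_23 had 5.00 and 3.63 at 5.30 and 5.27 h, with 9288 and 8144 detected genes. In CD8_75 and CD8_76, at 4.92 and 3.65, the low sister had the larger number, 9530 against 8801. The widest gap among all sisters, 3.90, lay between the middle cell CD8_96 and the low cell CD8_98, which had the lowest score of all.

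**Figure D3:**
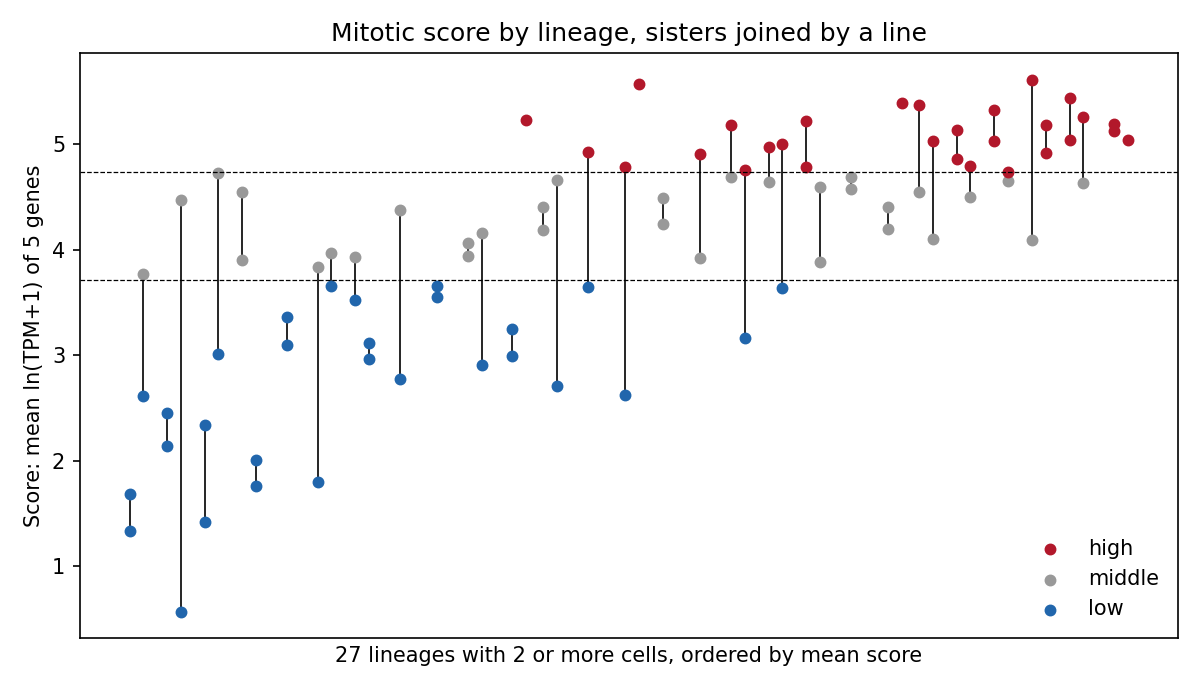
Score of each cell (y axis, mean ln(TPM+1) of 5 genes) in the 27 lineages with 2 or more cells (x axis, ordered by mean score), with sisters joined by a line and dashed lines at the limits of the terciles. Low cells gather on the left and high cells on the right, which follows from the ordering, and 5 lineages hold both.

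High libraries also held more detected genes. Their number ran from 5281 to 10124 in high cells (median 7252), from 2639 to 10905 in middle cells (median 7001) and from 2952 to 9530 in low cells (median 6195). The means of high and low cells differed by 1394 (permutation test exchanging lineages, 100000 resamples, p = 0.00437). Rn45s, the precursor of ribosomal RNA, made up 22.1% ± 8.38 of TPM in high and 20.6% ± 8.53 in low cells (SD, n = 32 each). Cell size, RNA content and the efficiency of library preparation cannot be told apart in the number of detected genes.

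Expression of the other genes was compared by limma on ln(TPM+1), with lineage as a random block and Benjamini-Hochberg adjustment over all 9992 genes tested. These genes come from the same libraries as the score, so the test is not independent of the selection in the way the time is. High cells were higher in 347 genes (3.47% of those tested) and lower in 3 (0.03%). Leaving out 1 lineage at a time gave 252 to 548 higher genes, the last without the lineage of CD8_29. The median difference over all genes was 0.33 in favour of high cells, and 8190 of 9992 differences were above 0. With the number of detected genes as a covariate this median was 0.03, and 77 genes were higher (0.771%) and 5 lower (0.05%). All 77 were among the 347. When each cell was instead centred on its own mean, a setting added after seeing the data, 85 genes were higher and 83 lower, and 44 of the 83 belong to the list of cytosolic ribosomal proteins. Results are therefore given as the main value followed by that with the covariate, called adjusted for detected genes. For no gene did all high cells lie above all low cells.

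Among the genes of lowest p were regulators of mitosis that the score does not use. Kpna2, an importin that carries cargo into the nucleus, ran from 113 to 2047 TPM in high cells (median 955) and from 0 to 526 TPM in low cells (median 120). Nusap1, which binds and bundles spindle microtubules, ran from 15.7 to 271 TPM (median 113.7) and from 0 to 126 TPM (median 7.86). Ube2c, the ubiquitin-conjugating enzyme of the anaphase-promoting complex, ran from 232 to 1956 TPM (median 1153) and from 0 to 799 TPM (median 101.9). In all 3 genes every high cell was above 0 and the ranges overlapped only in part. Kpna2 differed by 2.20 in ln(TPM+1) (SE 0.25, limma adjusted p = 1.36e-09), Nusap1 by 2.74 (SE 0.32, adjusted p = 2.76e-09) and Ube2c by 2.78 (SE 0.34, adjusted p = 6.92e-09). Adjusted for detected genes the 3 differences were 2.16, 2.96 and 2.60, and all passed.

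Fam64a, a mitotic regulator now also named Pimreg, had the widest difference among the 12 genes of lowest p, 2.97 (SE 0.37, limma adjusted p = 1.59e-08). It was above 0 TPM in 30 high and 14 low cells, with medians of 69.8 and 0 TPM. Aspm, a spindle pole protein, was above 0 in 31 high and 12 low cells at a low level, with a maximum of 23.4 TPM, and differed by 1.64. Fzr1, also called Cdh1, activates the anaphase-promoting complex after Cdc20, and had medians of 153 TPM in high and 16.3 TPM in low cells (difference 2.46). Prc1 (2.43) and Kif20a (2.41) act in the central spindle during cytokinesis, Cenpe (1.79) is a kinetochore motor, and Troap (2.38), Prr11 (1.58) and Tnfaip8l1 (2.59) completed the 12. Tnfaip8l1 belongs to neither the mitotic lists nor the study's cell cycle list, and was above 0 TPM in 27 high and 8 low cells. All 12 also passed adjusted for detected genes, with each cell centred, and with hours since division as a covariate. With lineage as a fixed term 8 of the 12 did not pass, all but Kpna2, Nusap1, Fam64a and Prc1, and Prc1 did not with hours and detected genes together (limma adjusted p = 0.0517).

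**Figure D4:**
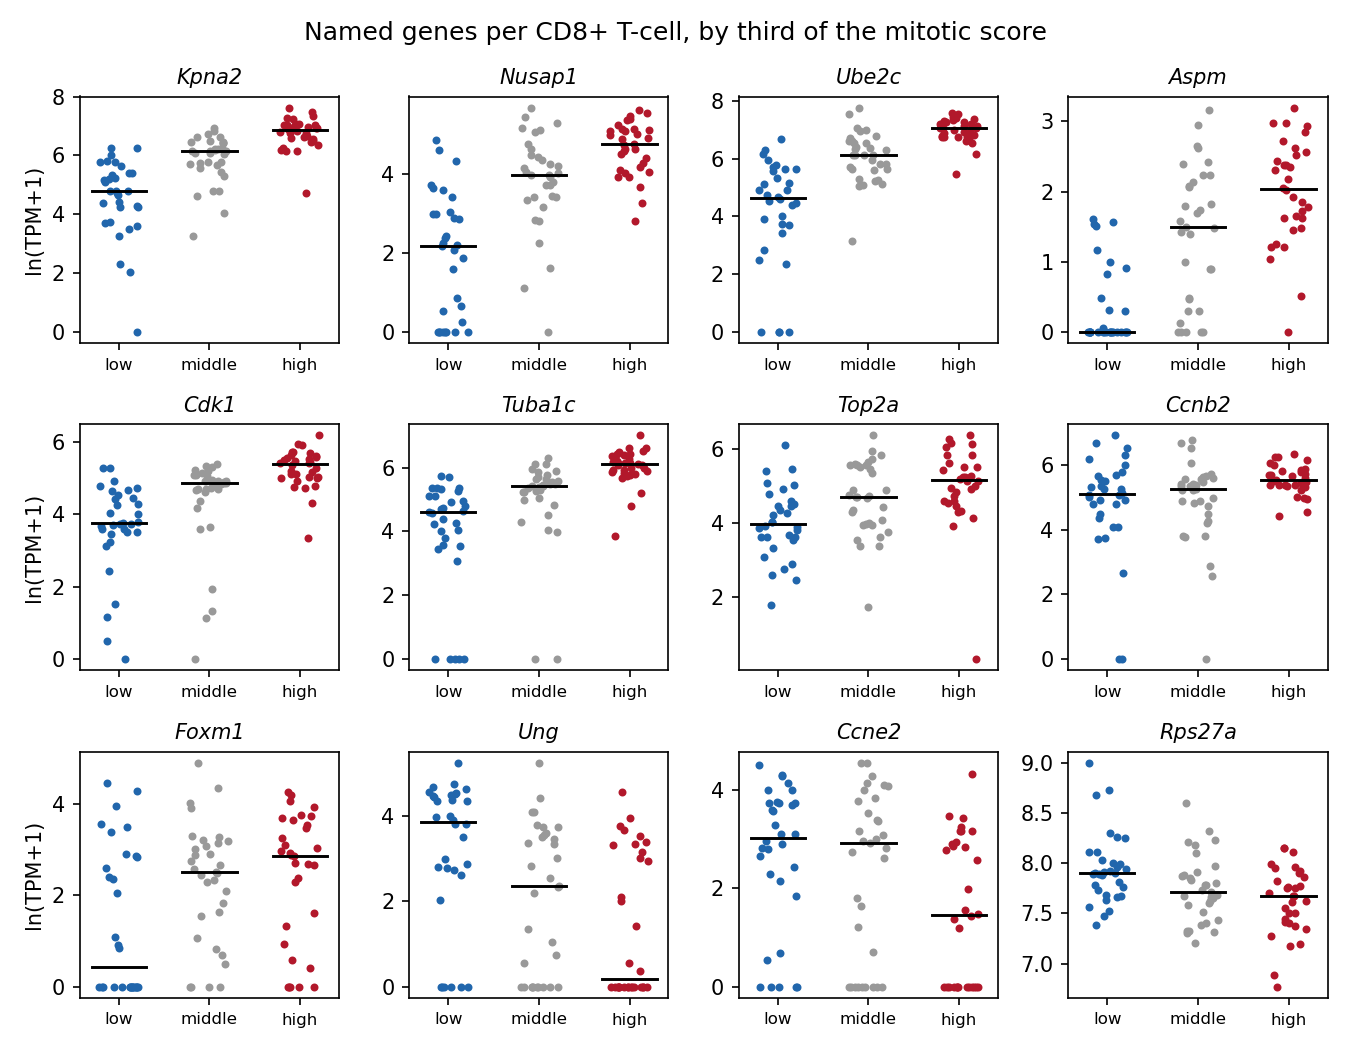
ln(TPM+1) of 12 genes in each cell (points) of the low, middle and high tercile, with the median of each as a black line. Kpna2, Nusap1, Ube2c, Aspm, Cdk1 and Tuba1c step up from low to high, Ccnb2 and Foxm1 overlap broadly, and Ung and Ccne2 are at 0 in many high cells.

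Among 21 mitotic kinases and cyclins, none of them a score gene, 12 were higher (7 adjusted for detected genes) and none lower, with a median difference of 1.17. Cdk1, the kinase that cyclin B activates, ran from 27.3 to 485 TPM in high cells (median 219) and from 0 to 196 TPM in low cells (median 41.5), and differed by 1.60 (SE 0.27, limma adjusted p = 2.43e-05). Ccnf differed by 2.32, Cdc25b, the phosphatase that activates Cdk1, by 2.29, and the checkpoint kinase Bub1b by 1.89. Ccnb2, the other B-type cyclin, did not pass. It was above 0 in 30 low cells with a median of 164 TPM, against 250.1 TPM in high cells, and its difference was 0.72 (SE 0.29, limma adjusted p = 0.137).

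Of the lists compared, that of the spindle held the largest share of calls. Of 28 motors and microtubule proteins, 24 were higher and 20 remained so adjusted for detected genes, with medians of 1.67 and 1.39. In 28 of 28 the adjusted difference was above 0. Besides Nusap1, Aspm, Prc1 and Kif20a, the 20 include the tetrameric motor Kif11 (1.74 adjusted for detected genes), the cytokinesis regulators Racgap1 (1.63) and Ect2 (1.46), and the spindle assembly factor Tpx2 (1.21). Of 38 kinetochore and centromere genes, 21 were higher, and 9 adjusted for detected genes, with medians of 1.06 and 0.87. Spc25, a subunit of the Ndc80 complex, had medians of 115 TPM in high and 20.05 TPM in low cells (difference 2.00), and the chromosomal passenger subunits Cdca8 and Incenp differed by 1.35 and 1.33.

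Fewer genes of mitotic exit and chromosome structure were called. In the anaphase-promoting complex list, 4 of 18 were higher, namely Ube2c, Fzr1, the separase Espl1 (1.503) and the core subunit Anapc7 (1.23), and the last was not called adjusted for detected genes. In the list of condensins and mitotic chromosome proteins 5 of 15 were higher, and only H2afx of these passed adjusted for detected genes (1.69, then 1.45). Mki67, the proliferation marker, was above 0 in every cell, with medians of 46.8 TPM in high and 18.2 TPM in low cells, and its difference of 1.07 (limma adjusted p = 0.00796) became 0.86 and did not pass (adjusted p = 0.142). Top2a, which untangles replicated chromosomes, had medians of 173 and 51.99 TPM, and 1.01 (adjusted p = 0.0161) became 0.97 (adjusted p = 0.0965).

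Of 19 regulators of the B-Myb, MuvB, FoxM1 and E2F group, none was called in the main model, where 3.47% of all genes were higher. With hours since division as a covariate Rbl1 (1.43, limma adjusted p = 0.0187) and Tfdp1 (1.43, adjusted p = 0.00921) were higher. With hours and detected genes together neither passed (limma adjusted p = 0.452 and 0.474). The median difference was 0.23, below the 0.33 over all genes, and with each cell centred -0.13 against -0.04. In other settings it lay above that of all genes. It was 0.05 against 0.03 adjusted for detected genes and 0.51 against 0.45 with hours. With both covariates it was 0.26 against 0.08, and with lineage as a fixed term 0.61 against 0.36. Foxm1 was above 0 TPM in 27 high and 16 low cells, with medians of 16.7 and 0.675 TPM, and its difference of 1.04 (SE 0.40) did not pass (limma adjusted p = 0.12). Rbl1 came nearest in the main model, at 1.04 (adjusted p = 0.0604).

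Tubulins, the subunits of microtubules, were higher in 4 of 11 genes, and the same 4 passed adjusted for detected genes. Over all genes the shares higher were 3.47% and 0.771%. Tuba1c had medians of 444 TPM in high and 97.96 TPM in low cells and differed by 2.08 (SE 0.33, limma adjusted p = 9.92e-06). Tubb4b (0.72), Tubb5 (0.55) and Tuba1b (0.46) differed less and were abundant in both groups, Tuba1b with medians of 4516 and 3260 TPM. With each cell centred, Tuba1c alone passed. Tubulin genes are similar in sequence, and how far reads were split between them is not known from the table.

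Of 50 genes of the G1/S transition and of DNA replication tested, 1 was higher (Dbf4) and 1 lower (Ung). Over all genes 3.47% were higher and 0.03% lower. Their median difference of 0.11, below the 0.33 over all genes, became -0.24 adjusted for detected genes and -0.26 with each cell centred. With lineage as a fixed term it was 0.52, above the 0.36 over all genes in that fit. Ung was above 0 TPM in 26 low cells (median 46.4, highest 187) and in 16 high cells (median 0.23, highest 95.1). Many high cells were thus at 0. Its difference was -1.68 (SE 0.42, limma adjusted p = 0.0103), and -2.56 adjusted for detected genes (SE 0.40, adjusted p = 1.82e-05). With hours as a covariate it did not pass (adjusted p = 0.244), and its median over all cells with a time was 58.99 TPM under 2 h, 43.01 TPM at 2 to 4 h, 8.03 TPM at 4 to 6 h and 0 TPM beyond 6 h. Ccne2, cyclin E2, which activates Cdk2 for entry into S phase, had medians of 19.6 TPM in low and 3.29 TPM in high cells. It differed by -1.03 (adjusted p = 0.11), and by -1.68 (adjusted p = 0.00853) adjusted for detected genes. The other 3 genes lower after that adjustment were the kinase Pim2 (-2.04), the acyl-CoA synthetase Acsl1 (-1.05) and the cohesion factor Dscc1 (-1.68).

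Of 11 G1 cyclins, CDKs and CDK inhibitors, 3 were higher, namely Cdkn2d (1.54), Cdkn1b (1.08) and Ccnd3 (0.80). Cdkn2d was called adjusted for detected genes as well (1.66). Over all genes the shares higher were 3.47% and, adjusted for detected genes, 0.771%. Cdkn2d, the Cdk4 and Cdk6 inhibitor p19, was above 0 in all 32 high cells (median 113 TPM) and in 26 low cells (median 34.7 TPM). None of 52 replication-dependent histone genes was called, where 3.47% of all genes were higher and 0.03% lower. Their median difference was 0.08, and -0.17 adjusted for detected genes. Most of these transcripts carry no poly(A) tail, on which poly(A)-primed libraries rely, and its part in these values was not tested. The 67 genes of the list still summed to a median of 3301 TPM in high and 4185 TPM in low cells.

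**Figure D5:**
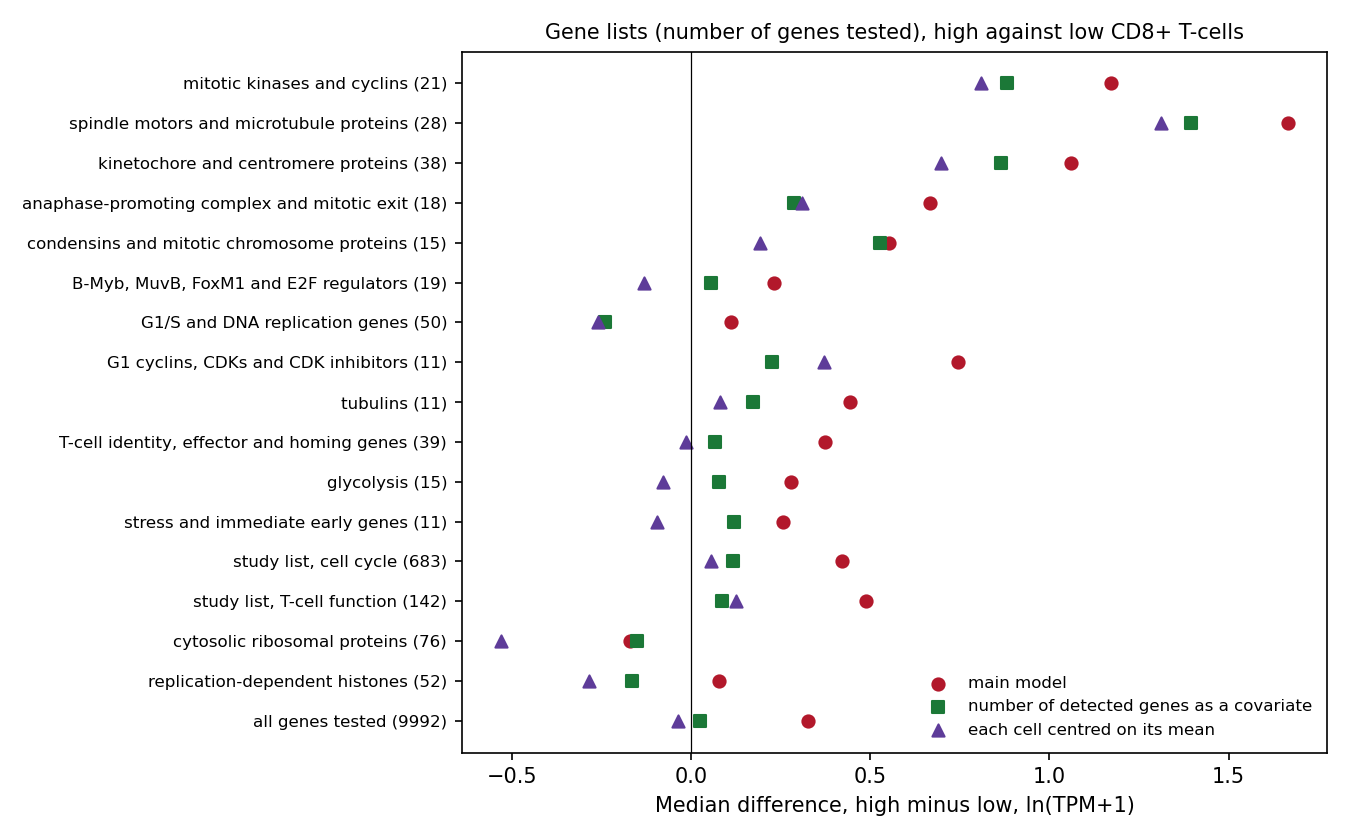
Median difference between high and low cells in ln(TPM+1) (x axis) for 16 gene lists and for all genes tested, with the number of genes tested in parentheses, in the main model (circles), with detected genes as a covariate (squares) and with each cell centred (triangles). Spindle, kinase and kinetochore genes lie to the right of all genes in each setting, while the G1/S, histone and ribosomal protein lists lie to the left.

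None of 39 genes of T-cell identity, effector function and homing was called in the main model, with a median of 0.37 against 0.33 over all genes, 0.07 adjusted for detected genes and -0.02 with each cell centred. With hours since division as a covariate 2 of the 39 were higher, Zap70 (0.84) and Lef1 (1.22), where 6.67% of all genes were higher. With hours and detected genes together none of the 39 was called. Gzmb, the cytotoxic protease granzyme B, spanned 0 to 5687 TPM in high cells (median 339, 27 above 0) and 0 to 5323 TPM in low cells (median 557, 28 above 0), and its difference was -0.53 (SE 0.61, limma adjusted p = 0.634). In the study's list of T-cell genes 5 of 142 were higher, a share near the 3.47% over all genes, and none after adjustment for detected genes. When hours since division was a covariate 20 of the 142 were higher and 1 lower, beside 6.67% and 0.29% of all genes. None of the 142 was called with hours and detected genes together. Glycolysis genes were higher in 3 of 15 (Gapdh, Gpi1 and Eno1) in the main model and in none adjusted for detected genes, and the median of the list was 0.28, 0.08 and, with each cell centred, -0.08. None of 11 stress and immediate early genes was called in the main model, where 3.47% of all genes were higher. With hours as a covariate 1 of them, Hspa8, was higher, and with hours and detected genes together none. The median of this list turned from 0.26 to -0.10 with each cell centred.

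Cytosolic ribosomal protein genes lay below the general shift. Of 76 tested, 7 had a difference above 0, and their median was -0.17. Rps27a was the only one of them called, with medians of 2146 TPM in high and 2698 TPM in low cells and a difference of -0.33 (SE 0.09, limma adjusted p = 0.0214). Rps3a1, named apart from the list, differed by -0.25 (adjusted p = 0.0368). Neither passed adjusted for detected genes, with -0.26 and -0.10. With each cell centred 44 of 76 were lower, where 83 of all 9992 genes were lower. Centring moved the median over all genes from 0.33 to -0.04 and that of this list from -0.17 to -0.53. The 44 calls are therefore not separate from the shift that centring makes. With hours as a covariate 18 of 76 were lower, where 0.29% of all genes were lower. Adjusted for detected genes no member of the list was called, with a median of -0.15 against 0.03 over all genes. None was called with hours and detected genes together either (median -0.27).

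The study's list of cell cycle genes, assembled by its authors, had 108 of 683 tested genes higher and 1 lower, with a median of 0.42, and 50 higher and 4 lower adjusted for detected genes. The 5 mitotic lists and the study's list together covered 34.3% of the 347 genes and 72.7% of the 77. Of the 77, 21 belonged to none of them, among them Tnfaip8l1, Sertad3 (2.29), the Myc-network repressor Mxd3 (2.70), Parpbp (1.76), the polyubiquitin gene Ubb (0.52) and the centriole protein Odf2 (1.70), all given adjusted for detected genes and chosen after their values were seen.

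Time and lineage were each brought into the model. With hours since division as a covariate (61 cells), 666 genes were higher (6.67%) and 29 lower (0.29%), and 259 of the 347 were among them. With hours and detected genes together, 26 were higher and none lower (582 and 335 at an unadjusted p under 0.05), led by Nusap1 (2.55), Aspm (1.67), Kpna2 (1.54) and Ube2c (2.36). With lineage as a fixed term, so that only lineages with both classes bear on the difference, 9 genes were higher and none lower, among them Kpna2 (2.03), Nusap1 (3.18), Fam64a (3.68) and Prc1 (2.84), and the actin gene Actg1 (0.86) with the actin-binding genes Cnn2 (1.34) and Cotl1 (1.38).

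A class taken from the sister's library does not use a cell's own score. When each cell with a sister was called by its sister's score (54 cells), limma with Benjamini-Hochberg adjustment called no gene in either direction, with 197 higher and 142 lower at an unadjusted p under 0.05. The score genes themselves differed by 1.67 (Aurka, SE 0.45), 1.11 (Plk1, SE 0.40), 0.84 (Cenpf, SE 0.33), 0.77 (Ccnb1, SE 0.31) and 0.745 (Cdc20, SE 0.40), and none of these passed the adjustment. The difference was above 0 for 74 of the 77 genes called adjusted for detected genes, with a median of 0.69, and for 52.5% of all genes, with a median of 0.02. Ung (-1.20) and Ccne2 (-0.85) were lower in value where the sister was high. These genes had been chosen in the same libraries by each cell's own class. Of the sister pairs, 6 were both high and 8 both low, against 4 high with low, so many cells kept their class. The shared direction is therefore not independent of the choice of genes and carries no test. Sisters share a lineage and a time since division, so the 2 libraries are separate measurements of related cells.

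L1210 cells split by the same rule gave 27 high and 27 low cells, and 803 of 10531 genes higher (7.63%) and 1 lower. Detected genes averaged 8975 in high and 7162 in low L1210 cells, and these counts and the list medians below are not adjusted for them. The low L1210 cells included L1210_8 (2718 detected genes, 79.3% of TPM from Rn45s) and L1210_15 (1610 and 55.5%). The high-low difference itself was compared between the cell types over 9155 genes, and 1 of them differed (0.0109%), with 649 at an unadjusted p under 0.05. The spindle list had medians of 1.67 in CD8+ T-cells and of 1.61 in L1210, the kinase list 1.17 and 1.52, and the kinetochore list 1.06 and 1.42, beside 0.34 and 0.45 over all genes, and no gene of the 3 lists was called. Tnfaip8l1 differed by 2.58 among CD8+ T-cells but by 1.01 among L1210 cells, a gap of 1.57 (SE 0.47) that did not pass (limma adjusted p = 0.465). Ikbke, a kinase of innate immune signalling, had the lowest p among genes with a larger difference in CD8+ T-cells (1.29 and -0.25), and did not pass either (adjusted p = 0.465).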

How the data were processed

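Per the labels and the methods of the study, reads of each single-cell Smart-Seq2 library were processed with TopHat2 and RSEM 1.2.3 on the mm10 build, and the authors deposited TPM (not log-transformed) for 23420 gene names, of which 27 had been turned into dates. TPM sum to 1000000 per library and keep no depth. The members and gene lists were chosen with earlier results of these data known, and some lists were taken from an earlier analysis of them. Expression was taken as ln(TPM + 1), with a pseudocount of 1 TPM. Genes above 1 on this scale in more than 10% of the CD8+ T-cells retained were tested by limma 3.58.1 (R 4.3.3, statmod 1.5.0) with a mean-variance trend, and lineage as a random block, whose correlation was 0.108. The threshold was an adjusted p of 0.05. Hours and detected genes were tested by exchanging the values of whole lineages of the same size, and sister scores by flipping signs over lineages (100000 resamples, smallest p 1e-05). Named genes are the 12 of lowest p called in each direction (3 were lower), up to 4 members of lowest p per list, 8 chosen by name, and 5 per direction of the comparison with L1210. Cousin labels of 2 cells were replaced by those the rest of the lineage gives. Promoters came from RefSeq (GRCm38.p6), matched by symbol or synonym for 8070 of 9992 genes. On simulated data for the high-low comparison over 9992 genes, 166 of 200 changed genes were recovered. No pair of libraries was identical. Python 3.11.15, numpy 2.4.6, scipy 1.17.1 and pandas 2.3.3 were used.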

Additional observations from a re-analysis of the deposited data

Results flagged for a closer look

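Zfp952, a zinc finger gene, was the only gene whose high-low difference differed between the 2 cell types by the interaction test. The difference was -1.03 among CD8+ T-cells but 1.41 among L1210 cells, a gap of -2.44 (SE 0.51, limma adjusted p = 0.0472). Zfp952 was above 0 TPM in 10 of 32 high and 16 of 32 low CD8+ T-cells, with medians of 0 and 0.19 TPM, and in 22 of 27 high and 9 of 27 low L1210 cells, with medians of 12.4 and 0 TPM. Within CD8+ T-cells alone its difference did not pass (adjusted p = 0.11). The interaction was also called without the lineage block and in none of the other 5 settings.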

How the results depend on the processing

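By cell number, no paired analysis was possible because the numbers in the labels only name cells and pair none of them across the groups. The sister labels did join a high with a low cell in 4 of 43 sister pairs, and these pairs were not tested on their own. Lineage, which the labels give, was instead a random block or a fixed term (9 higher genes from the 5 lineages that hold both classes). The difference in hours, in detected genes and in sister scores kept its direction and stayed past the threshold in every setting run, except for cousins in place of sisters (-0.19). The ranges over settings were 1.69 to 2.56 h and 1022 to 1710 detected genes, and with a lineage left out 2.12 to 2.54 h, 1193 to 1628 genes and -0.50 to -0.39. The number of higher genes, 347, was 77 with detected genes as a covariate, 666 with hours, 26 with both, 9 with lineage as a fixed term, 0 with the class from the sister, 748 with 48 cells per group, 795 with scaled score genes, 147 with at least 4000 detected genes, 569, 217 and 677 with the score without Aurka, Ccnb1 and Cenpf, and 85 with each cell centred. The number of lower genes, 3, was 5, 29, 0, 0 and 0 in the first 5 of these, 6 with 48 cells per group, 5, 1 and 6 without Cdc20, Ccnb1 and Cenpf, 83 centred, and 5 under the Mann-Whitney U-test over cells. With a lineage left out, 252 to 548 genes were higher and 1 to 5 lower, and leaving out CD8_29 gave 548 and 5, and leaving out CD8_10, CD8_44 or CD8_59 gave 1 lower. The interaction count of 1 was 0 with detected genes as a covariate, with 24 cells per group, with at least 4000 detected genes, with the 50% filter and without L1210_15. With the class from the sister, Incenp (-0.0479), Cdkn2d (-0.0509), Cdkn1b (-0.00064), Gapdh (-0.0336), Gpi1 (-0.0598) and Eno1 (-0.0358) changed sign, and Gapdh (-0.0843) also did with each cell centred. Of the 43 named genes called, 28 passed with detected genes as a covariate, 37 with hours, 4 with lineage as a fixed term and 0 with the class from the sister. Of the 35 not called, 12 were called with hours as a covariate. The cause of these moves was not tested. TPM keep no depth, so the precision of low values cannot be read from them. The study lists quality metrics for each library apart from the TPM.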
